A study of Mus musculus with 16 samples.

Results

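The 83 genes described here made more new RNA in mouse red cell precursors carrying a mutant form of the transcription factor KLF1, called Nan-KLF1, while their levels with normal KLF1 were at most 1.5 times those of cells without KLF1. They were chosen from the 1556 genes of the deposited 4sU table by 3 levels: at least 1 FPKM in K1 cells, a K1-NanER level of at least 2.5 times K1, and a K1-ER level of at most 1.5 times K1. Of 90 genes that met these thresholds, 7 were left out by name, namely Ccne2, Rab1, Slc12a2, Slc22a5, Slc30a5, Trim37 and Zfp101. The members are 5.33% of the table and 11.3% of its 737 genes raised in K1-NanER. FPKM counts sequenced fragments per kilobase of a transcript, corrected for the number of fragments mapped in the library. All 4sU levels below are given in the order K1, K1-ER, K1-NanER unless a line is named.

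K1 cells are erythroblasts, the precursors of red cells, that have no KLF1. K1-ER cells are K1 cells with a transgene that joins KLF1 to ER, the part of the oestrogen receptor that responds to tamoxifen, and K1-NanER cells carry the same fusion made with Nan-KLF1. Per the labels all 3 lines, the parental K1 cells included, received 200 nM 4-hydroxytamoxifen and 500 uM 4-thiouridine (4sU) for 1 h, and the labelled RNA was sequenced; how long tamoxifen was present before the labelling is not given there. Each line had 2 libraries; those of K1-ER came from clones A and C and those of K1-NanER from clones B and X. Each value below is the authors' single value per group, so that no spread between clones or cultures stands beside it. Differences between clones and effects of the transgene cannot be told apart. The other samples were chromatin immunoprecipitation (ChIP) and input DNA of both transgenic lines, fixed after 3 h of tamoxifen, and polyadenylated, globin-depleted RNA of whole fetal livers at embryonic day 14.5, 3 Nan/+ and 3 wild type.

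KLF1 is a zinc finger protein that switches on globin, heme and membrane genes as red cells mature. It binds DNA at CACCC elements, and the Nan mutation changes an amino acid in a zinc finger that reads this sequence. A mutant factor with altered reading can bind other letters and can act on genes that the normal factor leaves alone, which is why genes with a response to Nan-KLF1 and little response to KLF1 are of interest.

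Esr1, the oestrogen receptor gene that gives the fusion its ER part, was listed at 2.41, 136 and 70.3 FPKM, so K1-ER stood higher than K1-NanER; the part of this difference in the results was not tested. Of 9 erythroid marker genes, 4 have a row in the 4sU table (Alas2, Epor, Slc4a1 and Tfrc), with summed levels of 158, 611 and 279 FPKM. Epor made up most of this sum at 129, 485 and 139 FPKM. Both Epor and Slc4a1, which made up the least of the sum, were lower in K1-NanER than in K1-ER. Alas2, at 5.81, 25.6 and 26.0 FPKM, and Tfrc, at 21.1, 93.7 and 112 FPKM, were no lower in K1-NanER than in K1-ER. Of 36 markers of other cell types, 3 have a row, Cd79a, Vwf and Dlk1, with summed levels of 8.24, 5.09 and 3.76 FPKM. The lymphoid marker Cd79a was higher in both transgenic lines, at 0.1, 1.41 and 1.13 FPKM. Vwf, at 5.13, 2.88 and 1.99 FPKM, and Dlk1, at 3.01, 0.797 and 0.651 FPKM, were lower. No erythroid or other marker is a member, which the rule settles. It bars Slc4a1 by name, Cd79a by its K1 level and the other markers with a row by their ratios, and most markers have no row.

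The DNA letters at issue are those that the authors list as the central motif of a peak. Their lists use 18 words of 8 letters, 6 with C as the fourth letter, called C words here, and 12 with A or T there, called A/T words. Among the 20 Nan-KLF1 peaks tied to members, 13 have such a word: 9 C words and 4 A/T words. Of members with a Nan-KLF1 summit within 1 kb of an edge of the locus, 5 also hold the same word in the 250 bases before a RefSeq gene start. For Drap1, Foxh1, Nr1d2 and Dstn, which have a word and a summit as near, no such match was found. The 5 stretches are shown to set promoter letters of members with a nearby peak side by side, and a marked word need not lie in the peak. They come from RefSeq on build GRCm38.p6, are printed 5′ to 3′ in the direction of the gene, and carry the word in capitals, in its reverse complement where it lies on the other strand. The capitals mark a C word in Rbmx2, Cul3 and Hnrnph1 and an A/T word in Marf1 and Npepps. The Marf1 and Npepps stretches also hold 8 and 4 matches to CCNCNCCC, the pattern with C as the fourth letter, which are not in capitals.
Marf1 (chr16:14159275-14159524, minus strand, word CCCAGCCC): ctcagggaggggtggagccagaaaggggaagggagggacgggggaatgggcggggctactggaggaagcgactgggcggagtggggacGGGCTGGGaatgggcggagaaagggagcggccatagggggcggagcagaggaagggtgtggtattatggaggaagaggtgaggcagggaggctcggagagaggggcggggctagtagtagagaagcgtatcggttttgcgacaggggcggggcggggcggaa
Npepps (chr11:97280577-97280826, minus strand, word CCCTGCCC): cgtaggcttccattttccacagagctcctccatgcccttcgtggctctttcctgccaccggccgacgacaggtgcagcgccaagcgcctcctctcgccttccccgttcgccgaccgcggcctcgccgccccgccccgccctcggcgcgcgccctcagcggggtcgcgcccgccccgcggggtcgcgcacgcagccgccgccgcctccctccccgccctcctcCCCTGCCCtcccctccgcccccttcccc
Cul3 (chr1:80340691-80340940, minus strand, word CCCCGCCC): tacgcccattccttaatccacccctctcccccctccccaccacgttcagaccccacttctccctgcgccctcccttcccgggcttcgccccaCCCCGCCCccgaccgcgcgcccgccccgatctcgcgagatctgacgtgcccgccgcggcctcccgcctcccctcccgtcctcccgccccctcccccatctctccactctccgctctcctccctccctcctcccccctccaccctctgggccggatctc
Rbmx2 (chrX:48694754-48695003, plus strand, word CCCCGCCC): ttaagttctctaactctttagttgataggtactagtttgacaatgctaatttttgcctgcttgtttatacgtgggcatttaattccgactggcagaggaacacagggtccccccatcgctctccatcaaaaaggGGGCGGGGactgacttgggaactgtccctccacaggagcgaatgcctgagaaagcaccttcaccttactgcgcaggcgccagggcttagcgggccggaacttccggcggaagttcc
Hnrnph1 (chr11:50377547-50377796, plus strand, word CCCCGCCC): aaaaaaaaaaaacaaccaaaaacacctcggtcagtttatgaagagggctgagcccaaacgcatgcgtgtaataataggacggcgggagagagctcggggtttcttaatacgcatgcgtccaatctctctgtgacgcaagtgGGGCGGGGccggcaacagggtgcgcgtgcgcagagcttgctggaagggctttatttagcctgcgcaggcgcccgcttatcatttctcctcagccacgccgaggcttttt

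The word begins 162 bases before the gene start in Marf1, 28 in Npepps, 158 in Cul3, 116 in Rbmx2 and 109 in Hnrnph1. In stretches of the same length, CCCCGCCC occurs on either strand in 16.1% of all 32851 RefSeq promoters, CCCAGCCC in 5.15% and CCCTGCCC in 4.52%. These promoters are not a like group in composition. Taking the promoter richest in G and C of each gene, the median was 53.3% for all genes and 66.3% for members with a RefSeq promoter. The stretches differ in composition, from 52.4% G and C in Rbmx2 to 77.2% in Npepps. Marf1 also holds 19 and Cul3 17 overlapping matches to the looser pattern CCNNNCCC, against 3 each in Rbmx2 and Hnrnph1. A match gives letters in a window and not a position of the factor, and the peaks are on build mm9. The summits at Rbmx2 and Npepps lie 223 and 747 bp inside the locus. Those at Marf1, Cul3 and Hnrnph1 lie 171, 571 and 546 bp outside it. If the gene start is taken as the locus edge, the marked word falls outside the called peak in Npepps, Cul3 and Hnrnph1. In Marf1 and Rbmx2 it then falls inside.

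The levels that chose the genes are given as a description and were not tested here. In the authors' deposited table all 83 were called raised in K1-NanER at a q of at most 0.05, and the same holds for 47.4% of the table. The authors' deposited table calls none of the 83 in K1-ER, with 0.344 as their lowest q, and calls 49.4% of all its genes there in either direction. Both counts follow largely from the rule. No gene called raised in K1-ER had a level under 1.92 times K1, so the limit of 1.5 times keeps such genes out. Every gene of the table is called in at least 1 of its comparisons, so a member not called in K1-ER has to be called in K1-NanER. The same K1 libraries serve both comparisons, and the table has no direct test of one transgenic line against the other.

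Across the members the median level was 6.22, 8.24 and 19.3 FPKM in the order of the lines above. The K1-NanER level was a median of 2.83 times K1, from 2.51 for Cep120 to 5.39 for Trp53inp1, and 50 of the 83 genes lay under 3 times. The K1-ER level was a median of 1.33 times K1, and in 46 genes it was over 1.3 times. Of the 83, 8 were within 10% of K1, and 5 were below it. Expressed as K1-NanER over K1-ER, the median was 2.26 and the range 1.69 to 4.66, with 65 genes at 2 or more. No member stood at the floor of 0.1 FPKM in any line, and 57 of them were under 10 FPKM in K1.

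**Figure D1:**
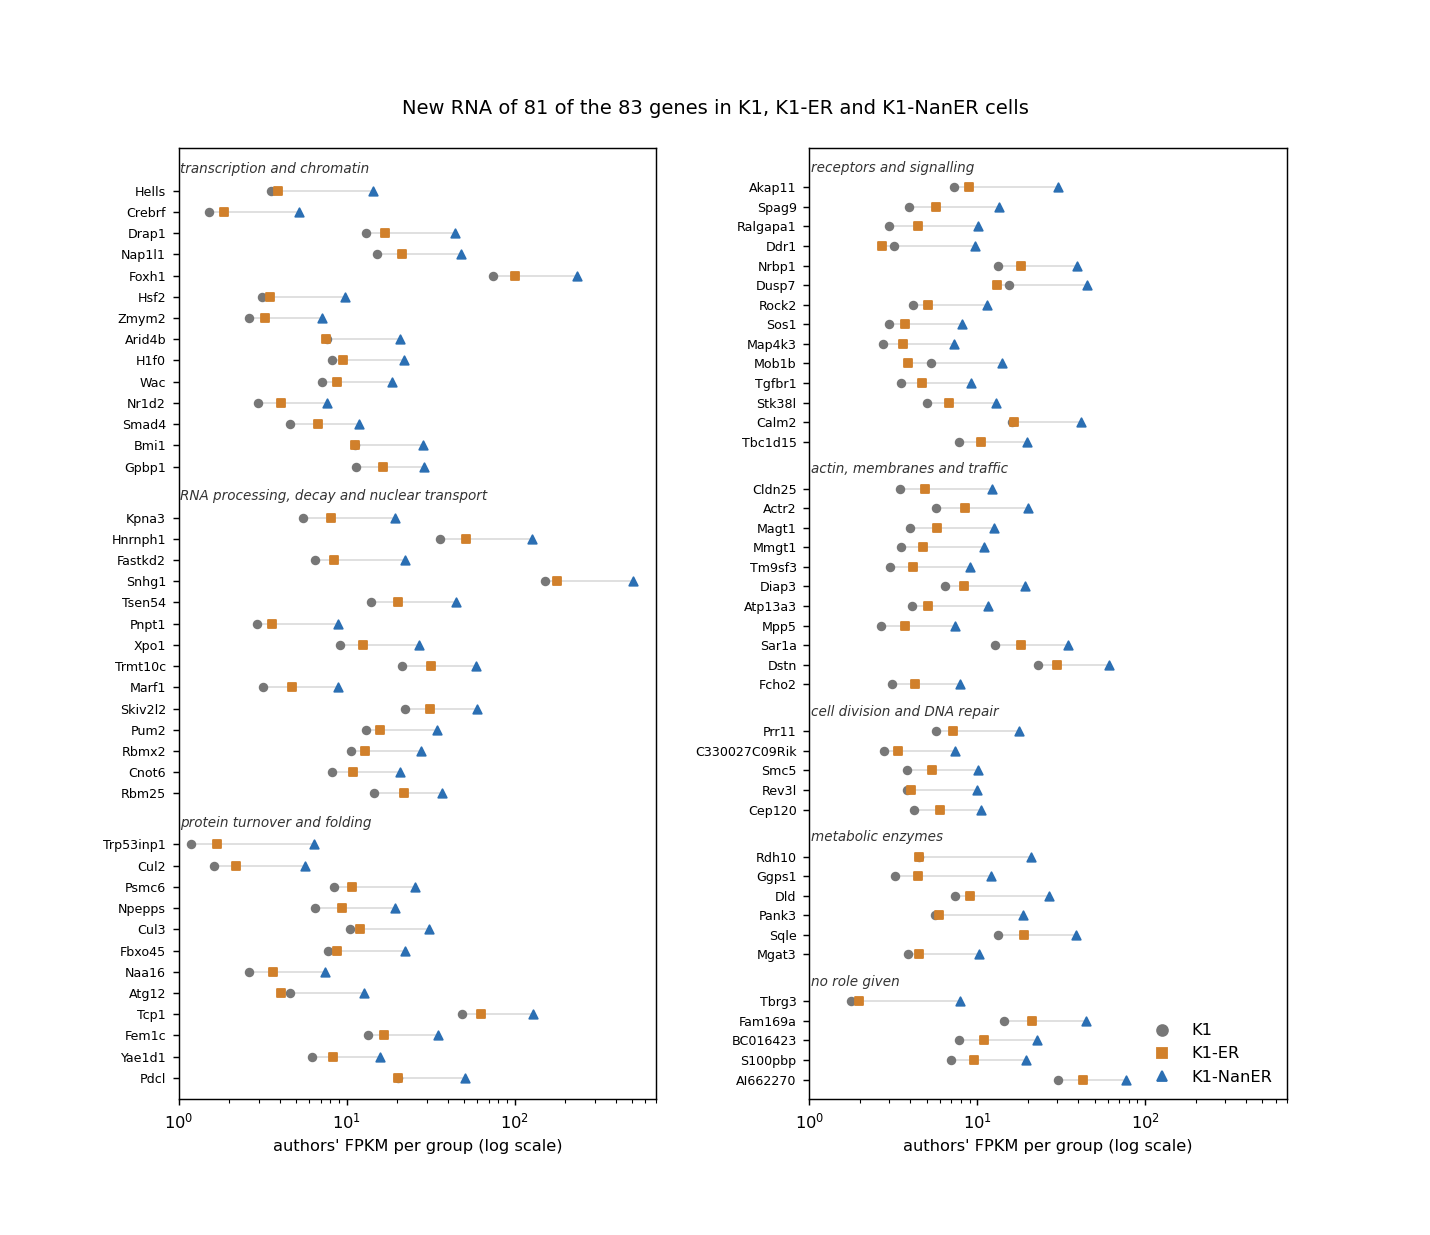
Authors' FPKM (log axis) of 81 of the 83 genes in K1 (grey circles), K1-ER (orange squares) and K1-NanER (blue triangles), 1 value per group, ordered by role and by the K1-NanER to K1 ratio. The triangles stand at 2.51 to 5.39 times the circles, while the squares stand between 0.728 and 1.497 times.

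The genes closest to the thresholds show how fine the boundary is. Cep120, Pdcl and AI662270 entered with K1-NanER levels of 2.506, 2.512 and 2.518 times K1, and Sgol1, Slc26a2 and Cdkal1 missed with 2.497, 2.496 and 2.495 times. At the K1-ER limit, Rbm25, Ralgapa1 and Trmt10c lay inside at 1.497, 1.493 and 1.490 times K1, and Wtap, Zhx1 and Slmap outside at 1.502, 1.502 and 1.505 times. At the K1 level, Trp53inp1, Crebrf and Cul2 lay inside at 1.19, 1.52 and 1.63 FPKM. Cdc14b, Sec23a and Slc39a14 lay outside at 0.939, 0.848 and 0.810 FPKM.

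The roles were assigned from textbook knowledge after the members were known: 14 genes act in transcription and chromatin, 14 in RNA processing, decay and nuclear transport, 14 in receptors and signalling, 13 in protein turnover and folding, 11 in actin, membranes and traffic, 6 in cell division and DNA repair and 6 in metabolism. For 5 genes, Tbrg3, Fam169a, BC016423, S100pbp and AI662270, no role is given.

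Among the transcription and chromatin genes, the steepest ratio was that of Hells, a chromatin remodelling helicase needed for DNA methylation. Hells (mm9, chromosome 19, 39005480 to 39042767) was at 3.53, 3.91 and 14.3 FPKM, so that K1 and K1-ER lay close together. Foxh1, a forkhead factor that partners SMAD proteins, was the most abundant of the group at 74.7, 101 and 236 FPKM. Drap1, a subunit of the NC2 repressor of transcription initiation, went from 13.0 to 16.8 and 43.9 FPKM. The histone chaperone Nap1l1 stood at 15.2, 21.3 and 48.1 FPKM. Smad4, the shared signal carrier of the TGF-beta and BMP pathways, was at 4.62, 6.72 and 11.9 FPKM. All 5 were highest in K1-NanER, as the choice of members requires.

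Chromatin genes of the same group include some with almost no K1-ER difference. Bmi1, a Polycomb repressor subunit, was at 11.2 FPKM in both K1 and K1-ER and at 28.5 FPKM in K1-NanER. Arid4b, a subunit of a histone deacetylase complex, was at 7.64, 7.57 and 20.8 FPKM. The linker histone gene H1f0 was at 8.20, 9.47 and 21.997 FPKM. Crebrf, a regulator of the CREB3 factors, was the least abundant in K1-NanER at 1.52, 1.86 and 5.22 FPKM. Nr1d2, a circadian repressor, was at 2.97, 4.07 and 7.69 FPKM. Hsf2, a heat shock factor, Zmym2, Wac and Gpbp1 complete the group, whose K1-NanER ratios run from 2.54 to 4.06.

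The RNA group holds the most abundant member. Snhg1, a host gene of small nucleolar RNAs, was at 151, 180 and 505 FPKM, the highest K1-NanER level of any member. Hnrnph1, a splicing regulator (mm9, chromosome 11, 50191221 to 50200030), followed in the group at 36.2, 51.4 and 127 FPKM. Nuclear transport is represented by the importin Kpna3, at 5.48, 8.06 and 19.3 FPKM, and the exportin Xpo1, at 9.08, 12.5 and 27.0 FPKM. All 14 genes of the group had K1-ER levels above K1, by 1.19 to 1.497 times.

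Several of these genes process or break down RNA in the nucleus, cytoplasm or mitochondria. Skiv2l2 (now Mtrex), the helicase that feeds the nuclear exosome, was at 22.2, 31.2 and 59.6 FPKM. Cnot6, a deadenylase of the CCR4-NOT complex, and Pum2, which represses bound messages, reached 20.8 and 34.7 FPKM in K1-NanER from 8.22 and 13.0 FPKM in K1. Fastkd2, Pnpt1 and Trmt10c handle mitochondrial RNA and reached 22.3, 8.86 and 59.3 FPKM in K1-NanER from 6.46, 2.93 and 21.4 FPKM in K1. Tsen54, of the tRNA splicing endonuclease, stood at 13.9, 20.1 and 45.1 FPKM across the lines, and the splicing factor gene Rbm25 at 14.6, 21.8 and 36.8 FPKM. Rbmx2 was at 10.6, 12.9 and 27.6 FPKM and Marf1 at 3.19, 4.71 and 8.83 FPKM, so both kept the order of the lines.

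The protein turnover group holds the gene of largest ratio and a set of ubiquitin ligase subunits. Trp53inp1, a p53-induced gene that promotes autophagy (mm9, chromosome 4, 11083588 to 11101524), was at 1.19, 1.69 and 6.39 FPKM. Cul2 and Cul3, cullin scaffolds of ubiquitin ligases, stood at 1.63, 2.20 and 5.65 FPKM and at 10.53, 12.1 and 31.1 FPKM. Both cullin genes thus lay nearer to K1 in K1-ER than in K1-NanER. Fem1c, a substrate receptor of a CUL2 ligase, was at 13.5, 16.6 and 35.02 FPKM, and Fbxo45 at 7.76, 8.81 and 22.2 FPKM.

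The rest of that group serves degradation and folding. Tcp1, a subunit of the CCT chaperonin, was the most abundant at 48.6, 63.4 and 128 FPKM. Psmc6, an ATPase of the proteasome, was at 8.42, 10.8 and 25.5 FPKM. Atg12, which is conjugated to ATG5 as autophagosomes form, was the member of the group below K1 in K1-ER, at 4.08 against 4.57 FPKM, and at 12.6 FPKM in K1-NanER. Npepps, an aminopeptidase gene, was at 6.46, 9.43 and 19.4 FPKM. Pdcl, a phosducin-like gene, differed little between K1 and K1-ER, at 20.1, 20.3 and 50.5 FPKM. Naa16 and Yae1d1 had K1-NanER ratios of 2.83 and 2.55.

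Among signalling genes, 3 had lower levels in K1-ER than in K1. Mob1b, a coactivator of LATS and NDR kinases, was at 5.32, 3.88 and 14.1 FPKM, the lowest K1-ER ratio of the set at 0.728. Dusp7, a phosphatase of ERK, was at 15.5, 13.1 and 44.9 FPKM, and Ddr1, a collagen receptor kinase, at 3.19, 2.72 and 9.68 FPKM. None of these K1-ER differences passed the authors' q in their deposited table. The NDR kinase Stk38l, a partner of MOB1 proteins, was at 5.04, 6.82 and 13.0 FPKM.

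The largest ratio of the signalling group was that of Akap11, an anchor of protein kinase A, at 7.32, 8.92 and 30.4 FPKM. Tgfbr1, the type I receptor of TGF-beta, was at 3.53, 4.68 and 9.22 FPKM. Sos1, which loads RAS with GTP, and Rock2, a kinase downstream of RhoA, reached 8.06 and 11.4 FPKM in K1-NanER from 2.99 and 4.12 FPKM in K1. Ralgapa1, of the complex that turns off RAL GTPases, was at 2.97, 4.44 and 10.1 FPKM, and the kinase gene Map4k3 at 2.74, 3.63 and 7.28 FPKM. Spag9 (a JNK scaffold), Tbc1d15, Nrbp1 and Calm2 (calmodulin) had K1-NanER ratios from 2.54 to 3.46.

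Actin and membrane genes had K1-ER levels of 1.24 to 1.49 times K1 and K1-NanER levels of 2.56 to 3.54 times. Actr2, a core subunit of the ARP2/3 complex, was at 5.68, 8.45 and 20.02 FPKM. Dstn, an actin depolymerising factor, was at 23.0, 29.7 and 60.7 FPKM, and Diap3, a formin that elongates actin filaments, at 6.43, 8.40 and 19.2 FPKM. Sar1a, the GTPase of COPII vesicles, reached 34.9 FPKM in K1-NanER from 12.8 FPKM in K1. Tm9sf3 was at 3.00, 4.16 and 9.08 FPKM. Cldn25, at 3.46, 4.91 and 12.2 FPKM, had the highest ratio, 3.54, and its symbol is listed for 2 RefSeq genes, so its identity is uncertain. Fcho2, Mpp5, Magt1, Mmgt1 and Atp13a3 make up the rest.

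The division and repair genes named here were of low level. C330027C09Rik (now Cip2a), Prr11, Smc5, Rev3l (the catalytic subunit of a translesion polymerase) and Cep120 lay between 2.77 and 5.65 FPKM in K1 and between 7.34 and 17.7 FPKM in K1-NanER. Cep120, a centriole gene, was at 4.19, 6.02 and 10.50 FPKM. Rev3l differed little in K1-ER, at 1.06 times K1.

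Metabolic enzymes had the highest median K1-NanER ratio of the role groups, 3.49, over 6 genes. Rdh10, which makes retinaldehyde from retinol (mm9, chromosome 1, 16095963 to 16122631), was at 4.49, 4.50 and 21.0 FPKM. Its level in K1-ER was thus at 1.00 times K1 and its level in K1-NanER at 4.67 times. Ggps1, which makes geranylgeranyl diphosphate, was at 3.24, 4.43 and 12.04 FPKM, and Sqle, an enzyme of cholesterol synthesis, at 13.3, 18.9 and 38.7 FPKM. Dld, a shared subunit of mitochondrial dehydrogenase complexes, went from 7.35 to 9.12 and 26.6 FPKM, and Pank3, of coenzyme A synthesis, from 5.60 to 5.96 and 18.8 FPKM. Mgat3, a glycosyltransferase, was at 3.86, 4.53 and 10.3 FPKM. Among the genes with no role given, AI662270 was at 30.4, 42.4 and 76.6 FPKM and Tbrg3 at 1.77, 1.99 and 7.92 FPKM.

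Other genes of these kinds give the setting, by lists of symbols and symbol beginnings applied to the whole 4sU table. A list matched in this way can hold genes of another function. The authors' deposited table calls 737 of all 1556 genes raised and 441 lowered in K1-NanER, and 589 raised in K1-ER. For 41 genes of RNA processing and decay, the authors' deposited table gives 25 raised and 12 lowered in K1-NanER and 5 raised in K1-ER. Of these 41, 7 are members, and 1 of the 7, Pank3, matched the list by its symbol and not by function. For 23 chromatin genes the authors' deposited table gives 18 raised and 4 lowered in K1-NanER and 8 raised in K1-ER, and Arid4b is the 1 member among them. Among 49 transcription factor genes, with 4 members, the authors' deposited table has 31 raised and 7 lowered in K1-NanER and 21 raised in K1-ER. Ubiquitin genes numbered 31, with 3 members, and the authors' deposited table has 16 raised and 10 lowered in K1-NanER and 10 raised in K1-ER. Cell cycle and repair genes numbered 45, and the authors' deposited table has 26 raised and 9 lowered in K1-NanER and 15 raised in K1-ER. The 4 members among them include Trp53inp1, which is placed under protein turnover above.

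Surface receptor and signalling genes had the opposite order. They numbered 33, with Tgfbr1 as the 1 member, and the authors' deposited table has 16 raised and 4 lowered in K1-NanER and 23 raised in K1-ER. Kinase and phosphatase genes numbered 42, with Dusp7, Map4k3 and Stk38l as members, and the authors' deposited table has 22 raised and 7 lowered in K1-NanER and 14 raised in K1-ER. For 18 small GTPase genes, with Ralgapa1, Sos1 and Tbc1d15 as members, these counts were 13, 2 and 5 in the authors' deposited table. For 32 genes of membrane traffic and autophagy, with Atg12 as the 1 member, they were 20, 5 and 11 in the authors' deposited table.

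Locus length, which the rule did not use, was long among the members. The median locus was 38.0 kb, with quartiles of 17.4 and 66.1 kb, against 17.8 kb for the whole table. The 737 genes raised in K1-NanER had a median of 29.7 kb, and the 589 raised in K1-ER 14.7 kb. In the reverse group, 86 genes with K1-ER at least 2.5 times and K1-NanER at most 1.5 times K1, the median was 8.08 kb, and in 200 genes at least 2.5 times K1 in both lines it was 16.3 kb. No test of these differences was made.

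With the table split into 5 length bins, 29 members (34.9%) lay in the bin of the longest loci, which starts at 53.9 kb, and 5 (6.02%) in that of the shortest, which ends at 5.60 kb. Genes raised in K1-NanER had 29.7% and 11.3% in the same bins. Members were 13.2% of the genes raised in K1-NanER in the longest bin and 6.02% of those in the shortest. The longest members are Diap3 at 485 kb, Ralgapa1 at 218 kb and Map4k3 at 148 kb, with K1-NanER ratios of 2.99, 3.40 and 2.66. The shortest are Foxh1 at 1.57 kb, H1f0 at 2.29 kb and Snhg1 at 2.84 kb, with ratios of 3.16, 2.68 and 3.34. The 2 steepest ratios did not belong to the longest or shortest loci: Trp53inp1 spans 17.9 kb and Rdh10 26.7 kb. Tbrg3, next at 4.47 times, has a listed locus of 104 kb, in the bin of the longest loci.

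**Figure D2:**
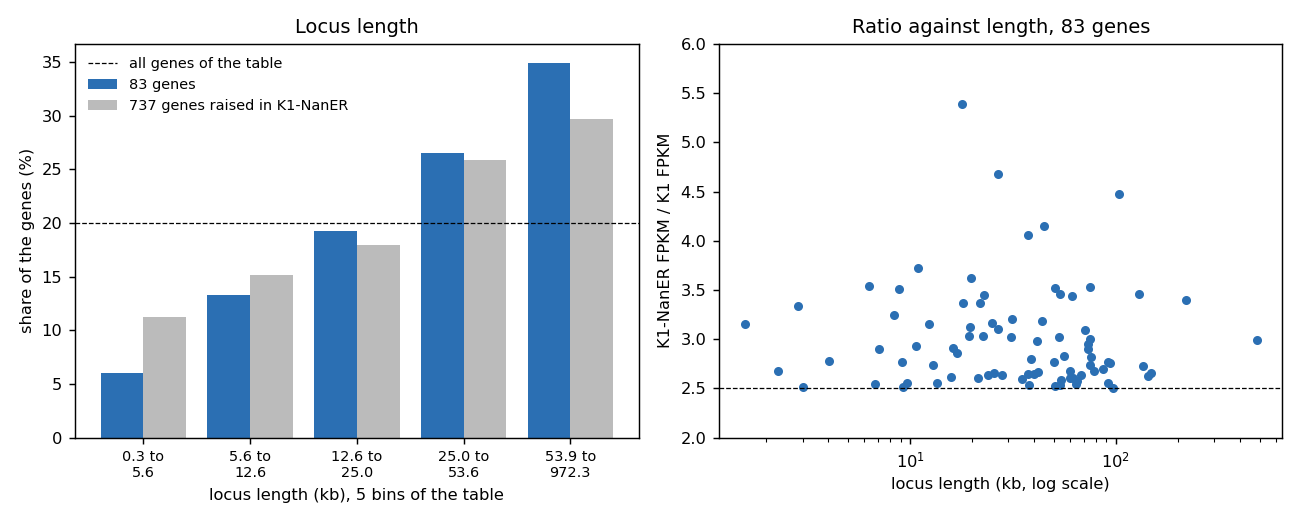
Left, share of the 83 genes and of the 737 genes raised in K1-NanER in 5 bins of locus length, with the share of the table in each bin as a dashed line; right, ratio of K1-NanER to K1 FPKM against locus length on a log axis, 1 point a gene, with the threshold of 2.5 dashed. The blue bars go from 6.02% in the shortest bin to 34.9% in the longest.

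By the authors' nearest gene, KLF1 peaks lay at a smaller share of the members than of the table. The share with Nan-KLF1 peaks, tied in this way, was nearer to that of the table. A peak was tied to a gene where the authors name it as nearest, and each factor had 1 ChIP library made from 3 pooled replicates. Of the 83 members, 19 (22.9%) had a Nan-KLF1 peak, against 26.5% of the table. A KLF1 peak was tied to 20 (24.1%), against 45.8% of the table. These table shares include the 589 genes raised in K1-ER, which the rule keeps out of the members. Among those 589 genes 71.1% had a KLF1 peak and 42.4% a Nan-KLF1 peak, so the table is not a like group for the members. With peaks tied by nearest gene, neither factor had a peak at 52 members, 12 had KLF1 peaks alone, 11 Nan-KLF1 peaks alone and 8 both. The position of the peak gives another class for some. Marf1, among those 11, also has a KLF1 peak, which the authors tie to Mir484. Of the 52, Snhg1, S100pbp and H1f0 have a KLF1 peak that overlaps the locus. Rev3l and Tsen54, also of the 52, have peaks of both factors within 10 kb. Crebrf, among the 12, has a Nan-KLF1 summit 4.83 kb from its locus. In the reverse group of 86 genes 75.6% had a KLF1 peak and 33.7% a Nan-KLF1 peak, and in the 200 genes raised in both lines 72.0% and 48.0%.

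Other ways to tie peaks to genes gave other counts. Inside the locus itself, 11 members (13.3%) held a Nan-KLF1 peak, against 20.3% of the table, and 20 (24.1%) a KLF1 peak, against 41.0%. Within 10 kb the counts were 20 (24.1%, against 33.2% of the table) and 31 (37.3%, against 55.2%). Within 100 kb they were 37 (44.6%, against 61.2%) and 55 (66.3%, against 80.9%). The share of members was below that of the table under each of these. Per megabase of locus, members held 2.58 Nan-KLF1 and 5.86 KLF1 peaks, and all genes listed held 6.71 and 14.6. From the locus to the nearest Nan-KLF1 summit the median distance was 149 kb for members and 45.1 kb for the table, and to the nearest KLF1 summit 40.4 and 5.10 kb. These are descriptions beside a table that is not a like group, and the differences were not tested.

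**Figure D3:**
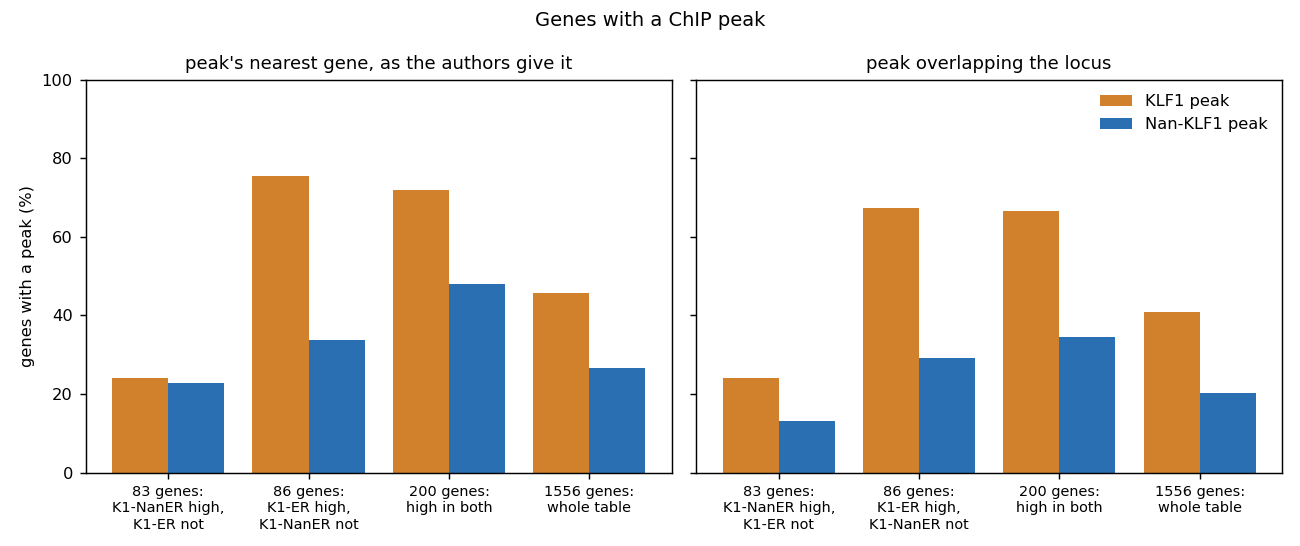
Percentage of genes with a KLF1 peak (orange) and a Nan-KLF1 peak (blue), by the authors' nearest gene (left) and by overlap with the locus (right), for the 83 genes, the 86 genes of the reverse rule, the 200 genes at least 2.5 times K1 in both lines and all 1556 genes of the table. The 83 genes have the lowest bar of each colour, with 24.1% and 22.9% on the left. The other 3 groups hold genes raised in K1-ER, which the rule keeps out of the 83.

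Fold values of peaks are those of the authors' peak caller. Marf1 had the highest Nan-KLF1 peak among members, 263-fold, at its promoter (mm9, chromosome 16, 14159301 to 14159730), and a K1-NanER ratio of 2.77. A KLF1 peak of 598-fold that the authors tie to Mir484 overlaps it, with its summit 91 bp away and the C word CCCCGCCC in place of CCCAGCCC. Rbmx2 had an intronic peak of 221-fold and a ratio of 2.62, and a KLF1 peak of 168-fold at the same place with the same word, CCCCGCCC. Drap1 had a promoter peak of 185-fold with CCACGCCC and a ratio of 3.36. Dusp7 had a distal peak of 185-fold, 9.12 kb from its locus, with CCCAGCCC.

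At Npepps the 2 factors' overlapping intronic peaks have different central words, both A/T words. The Nan-KLF1 peak, 166-fold, has CCCTGCCC, which also stands in capitals in its promoter above, and the KLF1 peak, 69.1-fold, has CCCAGCCC. Cul3 had a Nan-KLF1 promoter peak of 134-fold with CCCCGCCC and no KLF1 peak. Nr1d2 had promoter peaks of both factors, 127-fold for Nan-KLF1 with CCCCGCCC and 82.9-fold for KLF1 with CCCCTCCC.

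Further peaks with a word lay at Mgat3 (132-fold, CCCCTCCC), Tm9sf3 (117-fold, CCCAGCCC), Xpo1 (107-fold, CCCCTCCC), Hnrnph1 (87.7-fold, CCCCGCCC) and Dstn (78.0-fold, CCCCACCC). Mob1b, with an intronic Nan-KLF1 peak of 107-fold, had no central word. Xpo1 carried the strongest KLF1 peak among those the authors tie to a member, 471-fold and 19.8 kb from the locus, with the A/T word CCCTGCCC. Of the 5 genes with the steepest ratios, Trp53inp1, Rdh10, Tbrg3, Akap11 and Hells, none had a Nan-KLF1 peak, and the nearest Nan-KLF1 summit to Rdh10 was 1254 kb away. Trp53inp1 had a KLF1 peak of 44.4-fold in an intron.

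In the whole Nan-KLF1 list 49.7% of 1883 words were A/T words, and in the KLF1 list 19.8% of 4200. Among members the counts were 4 of 13 words (30.8%) for Nan-KLF1 and 5 of 19 (26.3%) for KLF1, and with so few peaks no difference from the lists was tested. By an overlap of at least 1 bp, 8 of the members' 20 Nan-KLF1 peaks lay on a KLF1 peak. By location 7 of the 20 were at promoters, 7 in introns, 5 distal and 1 downstream.

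Promoter letters of the set as a whole could not be described, since 60 of 83 members (72.3%) matched a RefSeq promoter, 3 of them by a newer symbol, and fewer than 80% makes such a check void. Among those 60, 49 held CCNCNCCC, the form with C as the fourth letter, and 52 held CCNNNCCC, of which the former is a special case, on either strand of the 300 bases. These are 81.7% and 86.7% of the matched members. For CCNCNCCC and CCNNNCCC, counted per gene in the same way, the shares were 80.4% and 91.98% of 1222 matched genes of the 4sU table. They were 86.4% and 94.7% of 566 genes raised in K1-NanER, and 51.9% and 72.1% of 27025 genes with a RefSeq promoter.

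Foxh1 was the single member with a row in the liver table, which holds 793 genes, all with a q under 0.05 and a log2 change of 1 or more in either direction. Of all 1556 genes listed for 4sU, each called in at least 1 comparison, 6.56% had such a row and 4.31% were raised in Nan/+ liver. Foxh1 (mm9, chromosome 15, 76498737 to 76500303) was at 2.60 FPKM in wild-type and 63.0 FPKM in Nan/+ livers, a log2 fold change of 4.60 with a q of 0.00244 in the authors' deposited table. The liver libraries had no part in the choice of members. For the other 82 genes the liver level is not analysed here, and a change smaller than those listed is not shown to be absent. In whole liver, a change in the number of cells of a type and a change in RNA per cell cannot be told apart.

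Kifc2, a kinesin gene 110 bp from Foxh1, was likewise highest in K1-NanER and higher in Nan/+ liver, and was named after its values were seen. It was at 15.5, 25.4 and 131 FPKM, and missed membership with a K1-ER level of 1.63 times K1. In liver it was at 0.590 FPKM in wild type and 13.0 FPKM in Nan/+, with a q of 0.00244 in the authors' deposited table. A Nan-KLF1 peak of 139-fold with the word CCCCTCCC lay at the edge of Foxh1 away from Kifc2, its summit 21 bp outside the locus, with no overlapping KLF1 peak. Both factors had a peak inside Kifc2, 76.6-fold for Nan-KLF1 and 69.1-fold for KLF1, named downstream of Foxh1 by the authors. Another Nan-KLF1 peak, 303-fold, lay at Ppp1r16a within a KLF1 peak of 40.9-fold, and both have the word CCCCGCCC. Reads from neighbouring genes so close together may be shared, which was not tested.

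**Figure D4:**
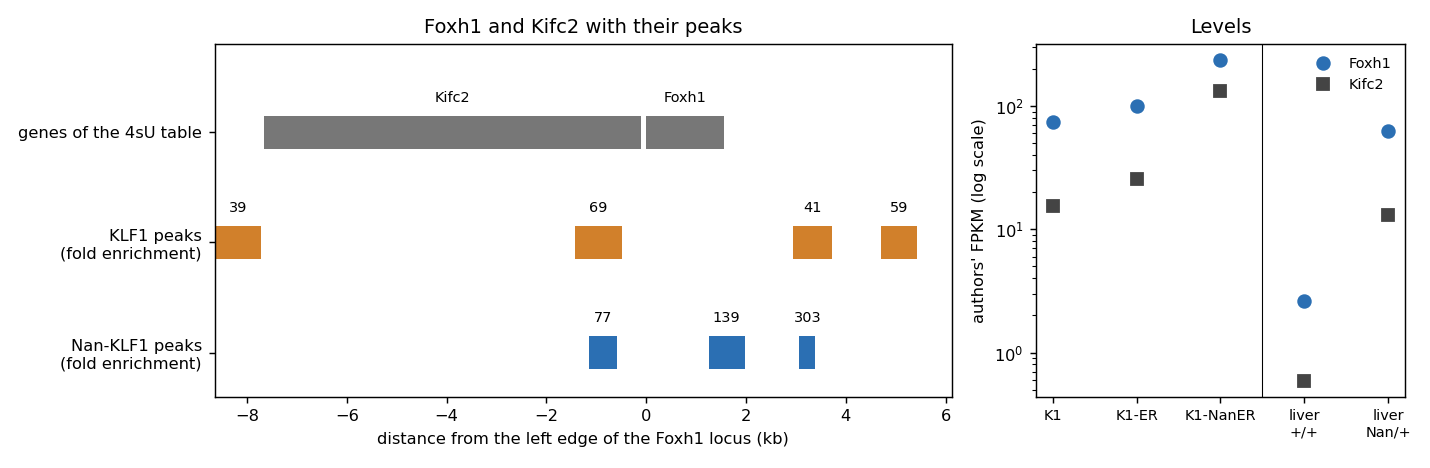
Left, loci of Foxh1 and Kifc2 with KLF1 (orange) and Nan-KLF1 (blue) peaks within 10 kb, by distance from the left edge of Foxh1 in kb, labelled with the fold enrichment; right, FPKM (log axis) of both genes in the 3 lines and in livers, 1 value per group. Both genes are highest of the lines in K1-NanER, at 236 and 131 FPKM, and higher in Nan/+ than in wild-type liver.

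Within 50 kb, 20 members had 22 neighbours from the table, 2 of them members themselves, of which 15 were called raised and 2 lowered by the authors' deposited table in K1-NanER. Without the members and the 2 genes left out by name, 18 neighbours remained, and the authors' deposited table calls 11 of them raised and 2 lowered, beside 47.4% raised and 28.3% lowered among all its genes. Arid4b and Ggps1, both members, lie 390 bp apart on chromosome 13. Trp53inp1 lies 17.0 kb from Ccne2, a cyclin gene that met the thresholds and was left out by name, at 7.27, 8.39 and 60.2 FPKM. Prr11 lies 18.4 kb from Trim37, likewise left out by name. Tbrg3 has the same listed locus as Tcf20, so its level is uncertain: Tcf20 was at 7.80, 12.6 and 23.2 FPKM.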

How the data were processed

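The authors' tables were used as deposited; no reads were processed. Per the submitters' processing notes reads were aligned with TopHat2 2.0.10 and peaks called with MACS 1.4.2, on build mm9; the program behind levels and q values is not given in the sources used here. The deposited tables give FPKM, log2 fold change, p-value and q-value, with 1 value per group, and the peak lists give a fold enrichment, a ratio of ChIP over input, and a rank score per peak. Depth per library is unknown. The floor of the 4sU levels is 0.1 FPKM (101 genes in K1).

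Ratios, locus lengths, overlaps and motif matches were computed in Python 3.11.15 with pandas 2.3.3 and checked on simulated data. Gene starts are printed 1 higher than listed. Peaks were tied to genes by the authors' nearest gene, within 300 kb. Of the members, 2 are counted but not reported here by name. No model was fitted, since the tables hold no values per replicate. The members and lists were chosen with earlier results of these data known. Full values were given for the 12 largest K1-NanER ratios, the 5 highest levels, liver genes, the 12 strongest Nan-KLF1 peaks, and the 3 longest and 3 shortest loci. Genes at the thresholds were given with the ratio or level that the threshold uses. Other members' values are examples of their role, chosen after they were seen. What the authors' p-values measure, and whether the K1 libraries came from separate cultures, is not given in the sources used here. Alternatives changed the thresholds, a pseudocount, the peak assignment, the peak strength and the promoter window.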

Additional observations from a re-analysis of the deposited data

How the results depend on the processing

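The number of members follows the thresholds. It was 166 with a K1-NanER ratio of at least 2 and 33 with at least 3, and 20 with a K1-ER ratio of at most 1.2 and 185 with at most 2. The median locus length was 24.6 kb with a K1-ER ratio of at most 1.2, and between 26.7 and 39.5 kb under the other membership alternatives. All were above the table's 17.8 kb, but not all were above the 29.7 kb of the genes raised in K1-NanER. Below that lay the 24.6 kb, the 26.7 kb with a K1-NanER ratio of at least 3 and the 28.4 kb with a pseudocount of 1 FPKM. The remaining alternatives gave 33.7 to 39.5 kb. Members with a Nan-KLF1 peak numbered 11 inside the locus, 37 within 100 kb and 10 when peaks had to exceed the median fold enrichment. Members with a KLF1 peak numbered 31 within 10 kb, 55 within 100 kb and 12 with the stronger peaks. The other alternatives stayed within 1.5 times of the values given. No paired analysis was possible because the deposited tables hold 1 value per group, and for the same reason no replicate could be left out. Without counts per library, neither the spread between clones nor the precision of low FPKM can be given.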
